A study of Mus musculus with 282 samples.

Results

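The cells compared here were single cells from mouse prostate that carried many or few reads of Ly6a, the gene of the surface protein Sca-1, within a population that had itself been stained for Sca-1 and sorted. Of 282 deposited cells, 268 had at least 1000 detected genes and at least 50000 counts. Members were chosen by their measured Ly6a CPM, the gene's reads scaled to the same total count in every cell. Within each of 4 groups the cells were ranked on it and split into 3 parts of like size, of which the top and the bottom part were taken. This gave 87 Ly6a-high and 87 Ly6a-low cells, and 94 cells lay in the middle parts. The classes comprised 26 high and 26 low of the 80 inflamed cells of batch 2, 25 high and 25 low of the 76 inflamed cells of batch 3, 17 high and 17 low of the 53 naive cells of batch 2, and 19 high and 19 low of the 59 naive cells of batch 3.

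All cells came from the prostates of male POET3 mice, which carry ovalbumin as a transgene product in the prostate and serve as a prostatitis model. The labels give each cell a condition, inflamed or naive, and a batch, but name no animal, age or number of mice, and the sources used here do not say how inflammation was brought about. The cells are labelled basal prostate stem cells. They were stained with a viability dye and for CD45, CD31, Sca-1 and CD49f before sorting, with gates not given in the sources used here. A Fluidigm C1 instrument captured the single cells, their polyadenylated RNA was amplified with SMARTer chemistry, and single-end reads were counted per gene without molecular identifiers, so every count is of reads and not of molecules.

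Sca-1 is a small protein of the Ly6 family that is held in the outer cell membrane by a glycolipid anchor. In mice it is widely used to sort stem and progenitor cells of blood and of other tissues, and in the mouse prostate it is used together with CD49f, the integrin encoded by Itga6, to enrich basal cells and cells of the proximal ducts. Ly6a is also an interferon-inducible gene. Several relatives lie beside it on chromosome 15, and parts of their transcripts are alike.

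How far Ly6a reads can be told from those of its relatives was examined in the annotated transcripts of GRCm38. The gene lies on the minus strand at chr15:74994877-74998031. Of the 1297 stretches of 50 bases, the read length, in Ly6a transcripts, 246 (18.97%) also occurred in a transcript of another gene. Ly6c1, which encodes a surface protein of leukocytes and endothelial cells, shared 195 of them (15.03%), Ly6i shared 31 and Ly6c2 shared 3. Each of the 195 stretches shared with Ly6c1 is as long as a whole read. Within 1 coding exon, leaving out stretches across exon joins, the longest stretch of Ly6a-201 identical in Ly6c1 is 48 bases long. It lies at chr15:74995283-74995330. It is shown, 5′ to 3′ on the minus strand, because it shows how alike the pair is over nearly a whole read, and no base is in capitals because all of it is shared.
Ly6a-201, stretch shared with Ly6c1: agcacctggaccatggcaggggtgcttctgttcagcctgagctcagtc

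Ly6a chose the classes, so its values are a description. Among inflamed cells of batch 2 the lowest, median and highest Ly6a CPM were 2293, 3502 and 7678 in the high class, against 12.04, 684 and 1096 in the low class. Among inflamed cells of batch 3 they were 2446, 2894 and 6068 in the high class, against 57.2, 714 and 1234 in the low class. Ly6a reads were thus plentiful in most low cells of the inflamed groups. Among naive cells of batch 2 they were 712, 1217 and 3103 in the high class, against 0, 13.4 and 92.3 in the low class. Among naive cells of batch 3 they were 728, 1245 and 2995 in the high class, against 0, 3.49 and 14.2 in the low class. A low cell is therefore low only for its own group: the medians of the inflamed low classes lay far above those of the naive low classes and near the lower limit of the naive high classes. At the edges of the classes the values ran on without a gap. The lowest high cell and the highest middle cell had 2293 and 2229 CPM in inflamed batch 2, 2446 and 2445 CPM in inflamed batch 3, 712 and 658 CPM in naive batch 2, and 728 and 707 CPM in naive batch 3. The highest low cell and the lowest middle cell had 1096 and 1102 CPM in inflamed batch 2, 1234 and 1249 CPM in inflamed batch 3, 92.3 and 96 CPM in naive batch 2, and 14.2 and 20.7 CPM in naive batch 3.

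The low classes of the inflamed groups held a small set of cells set apart by a gap in Ly6a level. Below 100 CPM, a limit chosen after its values were seen, lay 8 of the 26 inflamed low cells of batch 2, which reached at most 61.7 CPM, and the other cells started at 261 CPM. In inflamed batch 3, 4 of 25 low cells lay below that limit with at most 78.3 CPM, and the other cells started at 412 CPM. These sparse inflamed cells also had few detected genes, with medians of 2664 and 2760 in batches 2 and 3, against 4263 and 3567 in the inflamed low cells at or above 100 CPM. All 17 and all 19 naive low cells lay below the limit, with medians of 4601 and 3408 detected genes.

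**Figure D1:**
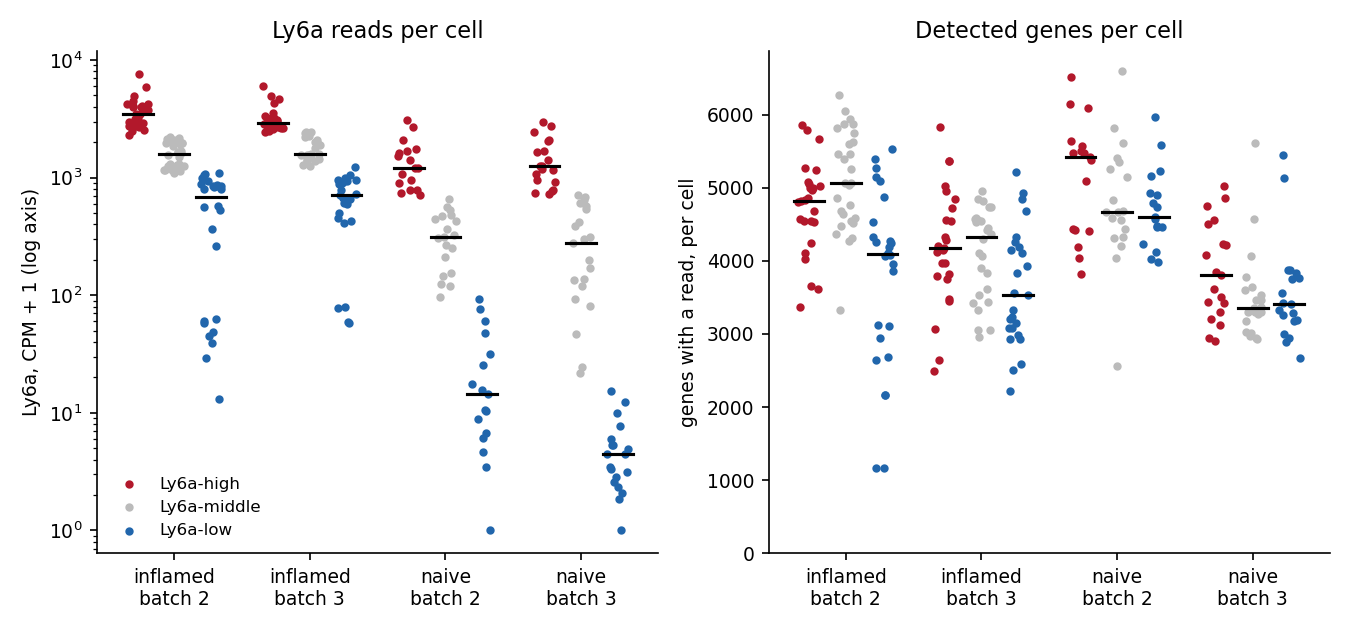
Left, Ly6a CPM plus 1 in each kept cell (log axis), by group and class. Right, the number of genes with a read in the same cells. Each point is 1 cell and black bars are class medians. Median detected genes were higher in the high than in the low class in 4 of 4 groups, and the low classes of the inflamed groups hold a small set of cells below 100 CPM.

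High cells had more detected genes than low cells. The median was 4823 against 4094 in inflamed batch 2, 4176 against 3529 in inflamed batch 3, 5419 against 4601 in naive batch 2, and 3813 against 3408 in naive batch 3. The medians averaged 4558 ± 710.0 in high and 3908 ± 550.3 in low classes, and the difference averaged 649.8 ± 177.5 (SD, n = 4 groups). An exact paired permutation test, two-sided, gave p = 0.13, the smallest p that 4 pairs allow. Median total counts were higher in the high class in 3 of 4 groups, and averaged 997984 in high against 865664 in low classes (exact permutation p = 0.25). The shares of reads from mitochondrial genes averaged 3.03% in high and 3.01% in low classes, and those from ribosomal protein genes 1.68% in high and 1.62% in low classes (exact permutation p = 1 for both). Across the cells of a group, Spearman's rho of Ly6a CPM with detected genes was 0.37 and 0.33 in inflamed batches 2 and 3 (80 and 76 cells) and 0.16 and 0.14 in naive batches 2 and 3 (53 and 59 cells). Both measures come from the same library, and the part of detection in the gene differences below was examined only by ranking cells within bins of detected genes.

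High and low cells of a group were then compared over all genes other than Ly6a, after summing their counts, which gave 4 pairs of sums with 16460138 to 28561023 counts each. No gene was called. Of 10438 genes tested with edgeR's quasi-likelihood test and the group as a block, 0 were higher and 0 lower in the Ly6a-high sums at an adjusted p under 0.05 (0% in each direction), and the lowest adjusted p was 1. An unadjusted p under 0.05 was reached by 309 genes (2.96%), with 1.58% of genes tested higher and 1.38% lower. DESeq2 on the same sums called 480 genes, with 2.96% of genes tested higher and 1.64% lower. Of those 480 genes, 32.3% had a read in at least 20% of cells, and 192 also had an unadjusted edgeR p under 0.05. When cells were given equal weight, as mean log2(CPM + 1), limma called 0 genes (lowest adjusted p = 0.312), and the unadjusted p was under 0.05 for 976 higher genes (9.35%) and 62 lower ones (0.594%). On that scale 7574 of the 10438 genes were higher in the high class and the median difference was 0.20 log2 units, against a median of 0.06 over the edgeR fold changes.

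What these sums could resolve differed between widely and rarely read genes. Among the 700 tested genes with a read in at least 90% of cells the median SE of the log2 fold change was 0.37 (quartiles 0.28 and 0.50), and among the 6880 with a read in at least 20% of cells it was 0.99 (quartiles 0.66 and 1.48). A single cell supplied a median of 46.8% of the reads of such a gene in a high sum, and 51.7% in a low sum.

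**Figure D2:**
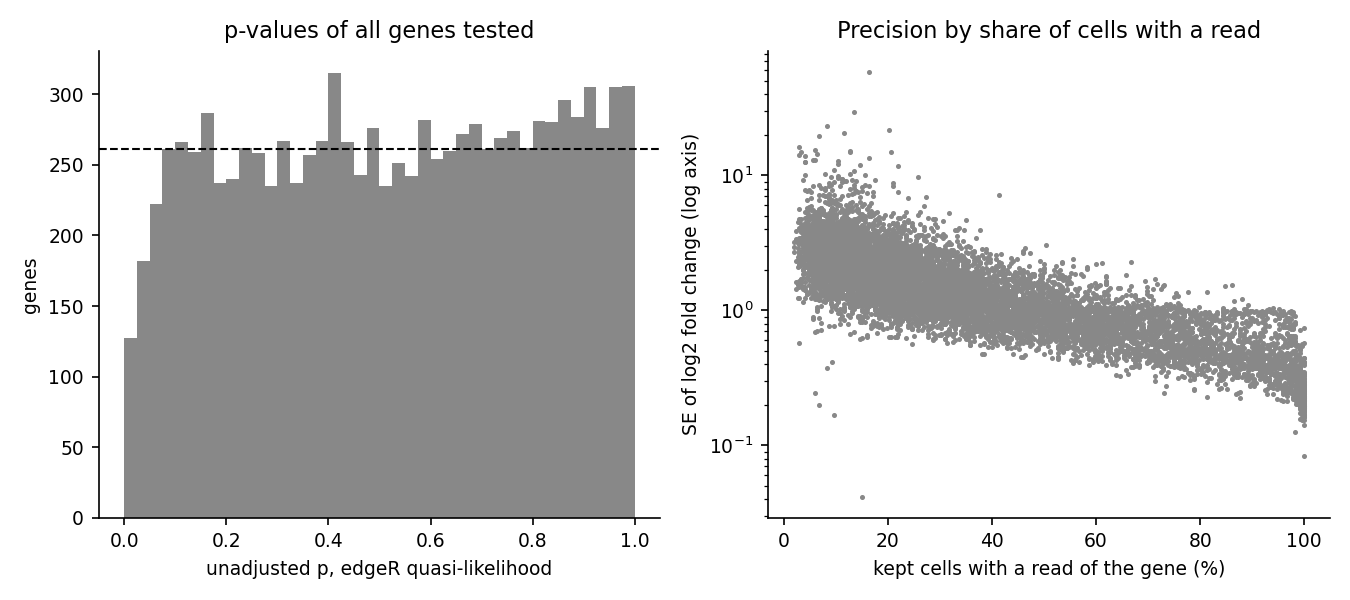
Left, unadjusted edgeR p-values of the 10438 genes tested, with a dashed line at the height that an even spread would give. Right, the SE of each log2 fold change (log axis) against the percentage of kept cells with a read of the gene. Few p-values lie near 0, with 309 genes (2.96%) under 0.05, and the SE is smallest for genes read in nearly every cell.

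Genes with the same direction in all 4 groups were sought among those with a read in at least 20% of cells. Of 6880 such genes 490 (7.12%) were higher and 483 (7.02%) lower in the high sum of every group. The 12 of each direction with the smallest p are described next, so that their direction and small p are what chose them. For some of them, and for a gene named later, high and low values are said not to overlap. How many of all genes tested had such values was not counted. In the sentences below CPM values are of the summed reads, and their order is inflamed batch 2, inflamed batch 3, naive batch 2 and naive batch 3.

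Cav2 and Slc5a3 had a read in the largest shares of cells among the 12 higher genes. Cav2 (chr6:17281185-17289115) encodes caveolin-2, a component of the small membrane pits called caveolae. It had 322, 375, 458 and 817 CPM in the Ly6a-high sums, against 101.3, 215, 137.9 and 128.98 CPM in the Ly6a-low sums. The high and low values did not overlap across the 4 groups, and the log2 fold change was 1.72 ± 0.40 (SE, edgeR unadjusted p = 0.00539), with an adjusted p of 1. Slc5a3, the sodium-coupled carrier of myo-inositol, had 402, 465, 743 and 2294 CPM in the Ly6a-high sums, against 164.9, 297, 459 and 1244 CPM in the Ly6a-low sums. It was higher in the high sum of each group, by 1.29, 0.65, 0.69 and 0.88 log2 units, while the naive batch 3 low sum exceeded the high sums of the other groups. Its log2 fold change was 0.88 ± 0.23 (SE, edgeR unadjusted p = 0.00871).

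Several of the other higher genes had a read in few cells of either class. Sh2d4a, which encodes an SH2-domain protein, had 60.3, 39.8, 14.1 and 140.8 CPM in the Ly6a-high sums, against 2.46, 0.444, 0.493 and 1.51 CPM in the Ly6a-low sums. No low value reached a high one, and the log2 fold change was 5.61 ± 1.07 (SE, edgeR unadjusted p = 0.0021). High against low cells with a Sh2d4a read numbered 12 against 5 of 26, 5 against 3 of 25, 6 against 7 of 17 and 6 against 5 of 19 in the 4 groups. Abcg2, an efflux pump of the cell membrane known from side-population stem cells, had 16.1, 12.3, 127.1 and 33.02 CPM in the Ly6a-high sums, against 0.0546, 0.0888, 13.98 and 1.79 CPM in the Ly6a-low sums. A single cell supplied 96.4% of the Abcg2 reads in the inflamed batch 3 high sum and 98.7% of those in the naive batch 3 high sum, and the log2 fold change was 5.47 ± 1.496 (SE, edgeR unadjusted p = 0.0111), or 1.86 with cells ranked within bins of detected genes. In naive batch 3 fewer high than low cells had an Abcg2 read, 4 against 7 of 19. Plcg2, a phospholipase C that acts below surface receptors, had 36.6, 65.5, 4.77 and 5.69 CPM in the Ly6a-high sums, against 3.33, 7.95, 0.0616 and 0.138 CPM in the Ly6a-low sums. Here too single cells gave 98.9% of the reads in the naive batch 2 high sum and 100% of those in the naive batch 3 high sum.

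The remaining higher genes were Nrbp2, a pseudokinase gene, Usp38, a deubiquitinase, Rtf2, a replication termination factor, Hmox2, the constitutive heme oxygenase, Zkscan6, a zinc finger gene, Tent5a, a poly(A) polymerase, and Bms1, a ribosome assembly factor. Their log2 fold changes were 3.36 for Nrbp2, 6.88 for Usp38, 3.18 for Rtf2, 4.71 for Hmox2, 3.00 for Zkscan6, 2.09 for Tent5a and 5.10 for Bms1. Single cells gave 93.7% and 97.7% of the Usp38 reads in the inflamed and naive high sums of batch 3. For Bms1 they gave 99.4% in the inflamed batch 3 and 99.1% in the naive batch 2 high sum. For Hmox2, 1 cell gave 97.5% in the inflamed batch 2 high sum. Fewer high than low cells had a Hmox2 read in naive batch 3, 3 against 6, and more in the other groups. Tent5a, with a read in 54.5% of kept cells, had 176.1, 154.9, 159.8 and 207 CPM in the Ly6a-high sums, against 37.002, 28.3, 20.9 and 133.7 CPM in the Ly6a-low sums. The highest Tent5a low value, in naive batch 3, stayed under the lowest high value. Single cells gave 81.2%, 96.2% and 86.6% of the Tent5a reads in the low sums of inflamed batch 3 and naive batches 2 and 3. Fewer high than low cells had a Tent5a read in naive batch 3, 4 against 8, and more in the other groups. Rtf2, with a read in 34.3% of kept cells, had 63.1, 161.4, 39.5 and 144.01 CPM in the Ly6a-high sums, against 8.13, 34.02, 2.40 and 12.9 CPM in the Ly6a-low sums. Single cells gave 89.7% and 93% of the Rtf2 reads in the naive low sums of batches 2 and 3. No Rtf2 low value exceeded 34.02 CPM and no high value was under 39.5 CPM.

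F3 had the most reads of the 12 lower genes. F3 (chr3:121723537-121735048) encodes tissue factor, the membrane protein that starts blood clotting. It had 5426, 2895, 393 and 606 CPM in the Ly6a-high sums, against 8614, 5656, 2002 and 2096 CPM in the Ly6a-low sums. F3 was lower in the high sum of every group, but the inflamed high sums exceeded the naive low sums. The log2 fold change was -1.44 ± 0.31 (SE, edgeR unadjusted p = 0.00403), or -0.71 with cells ranked within bins of detected genes, and the within-group differences were -0.67, -0.97, -2.35 and -1.79 log2 units. The difference was smaller in the inflamed than in the naive groups by 1.25 log2 units (edgeR interaction, unadjusted p = 0.0151, adjusted p = 1). A single cell gave 68.2% and 58.5% of the F3 reads in the naive high sums of batches 2 and 3.

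A further 5 of the lower genes are given with their values. Map2k3, a kinase that activates p38, had 335, 268, 41.9 and 123.7 CPM in the Ly6a-high sums, against 527, 684, 268 and 533 CPM in the Ly6a-low sums. Ptp4a1, a phosphatase anchored to membranes, had 349, 268, 107.5 and 373 CPM in the Ly6a-high sums, against 559, 494, 357 and 953 CPM in the Ly6a-low sums. No cell gave over 32.1% of the Ptp4a1 reads in a sum, and its log2 fold change was -1.16 ± 0.30 (SE, edgeR unadjusted p = 0.00867). Cnn2, calponin-2, which binds actin, had 596, 368, 313 and 222 CPM in the Ly6a-high sums, against 773, 793, 697 and 613 CPM in the Ly6a-low sums. High and low values of Cnn2 did not overlap, and the log2 fold change was -1.03 ± 0.28 (SE, edgeR unadjusted p = 0.0108). Ppp1r12a, the targeting subunit of myosin phosphatase, had 211, 82.03, 209.9 and 145.6 CPM in the Ly6a-high sums, against 362, 259.6, 398 and 661 CPM in the Ly6a-low sums. Its values also stayed apart, and its log2 fold change was -1.39 ± 0.38 (SE, edgeR unadjusted p = 0.0106). Bmpr1a, a receptor of bone morphogenetic proteins, had 77.6, 55.2, 411 and 44.1 CPM in the Ly6a-high sums, against 315, 148.9, 704 and 179.6 CPM in the Ly6a-low sums. The naive batch 2 high sum of Bmpr1a exceeded 3 of the 4 low sums, and 78.5% of its reads came from 1 cell.

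The other 6 lower genes were Taf1, a subunit of the basal transcription factor TFIID, Uggt1, a folding sensor of the endoplasmic reticulum, Stim2, a calcium sensor of the same compartment, Kxd1, a gene of lysosome positioning, and Gm40309 and Rab10os, which have no role given here. Log2 fold changes were -2.02 for Taf1, -2.49 for Uggt1, -4.74 for Stim2, -3.08 for Kxd1, -2.39 for Gm40309 and -4.16 for Rab10os. Single cells gave 94.9%, 99.6% and 99.4% of the Stim2 reads in the low sums of inflamed batch 3 and naive batches 2 and 3. In inflamed batch 2, 12 high against 7 low cells had a Stim2 read. For Rab10os single cells gave 98.7% and 95.1% of the naive low sums. In mean log2(CPM + 1) the differences were -0.39 for Stim2, -0.33 for Rab10os and -1.48 for Kxd1. Taf1 had 22.4, 9.22, 22.3 and 69.2 CPM in the Ly6a-high sums, against 108.9, 40.5, 75.3 and 258 CPM in the Ly6a-low sums. Rab10os is named as an opposite-strand transcript of Rab10, and since no source used here says that counting used strand, its reads cannot be told from those of a partner gene.

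**Figure D3:**
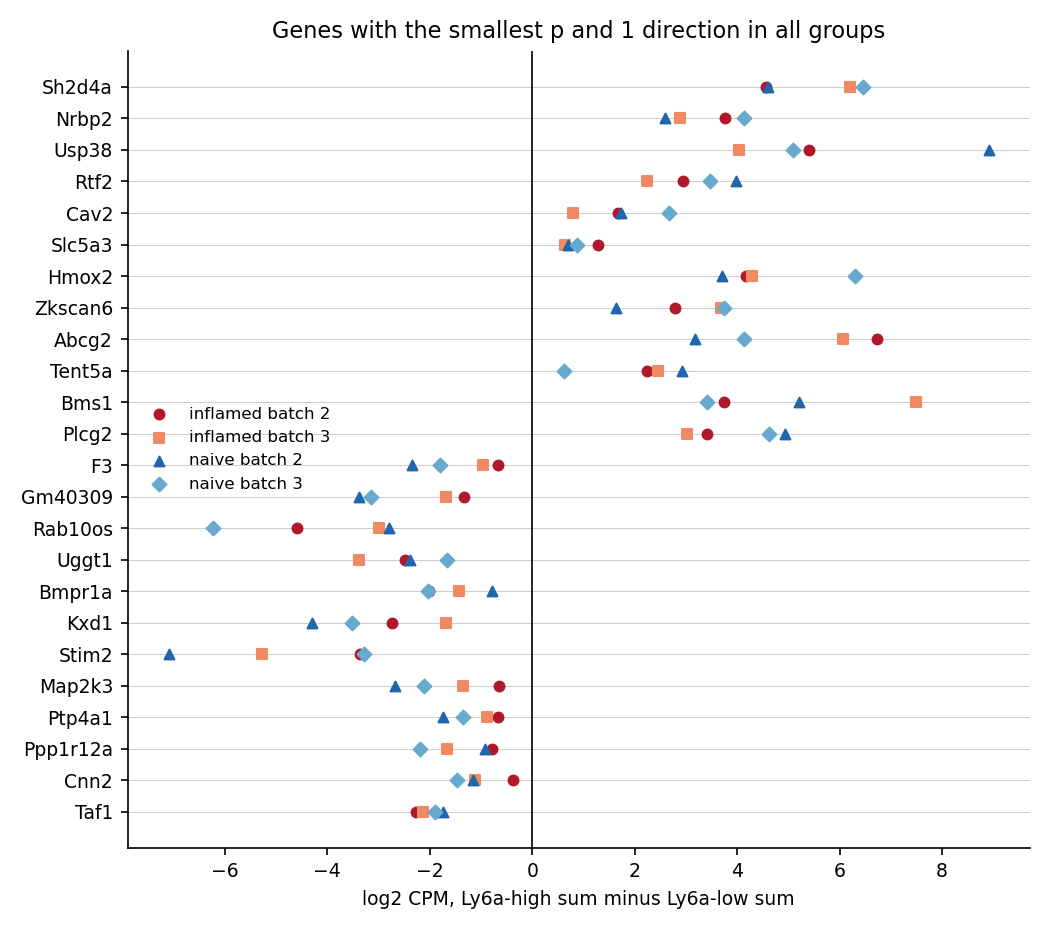
Log2 CPM of the Ly6a-high sum minus that of the Ly6a-low sum in each group, for the 12 higher and 12 lower genes with the smallest p among genes with 1 direction in all 4 groups. Symbols are groups, and no gene passed the adjusted threshold. Slc5a3 and Cnn2 have small, tight differences, while Usp38 and Rab10os spread over several log2 units.

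Where the middle cells lay between the classes varied from gene to gene. The middle sum lay between the high and the low sum in all 4 groups for 1 of the 24 genes, Ptp4a1, and for 220 of all 10438 genes tested (2.11%). Among the widely read genes above, it did so in 3 groups for Cav2 and Tent5a, in 1 for Slc5a3 and in 0 for F3.

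The Ly6 family to which Sca-1 belongs was looked at next. Of 29 relatives listed, 28 had a row in the tables, and 6 had enough reads to be tested: Ly6c1, Ly6d, Ly6e, Lypd3, Lynx1 and Plaur. None of the 6 was called, and 3 of them, Ly6c1, Ly6d and Lypd3, were higher in the high sum of all 4 groups, against 7.02% of all genes tested. The median log2 fold change of the 6 was 2.25, against 0.06 over all genes tested, and it was 1.55 with cells ranked within bins of detected genes. Psca, a prostate stem cell antigen of the family, had 1075 reads in the 8 sums and was not tested.

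Ly6d (chr15:74762056-74763620), a surface protein used in the mouse prostate as a mark of luminal progenitors, had 879, 1264, 123.8 and 389.9 CPM in the Ly6a-high sums, against 871, 905, 20.6 and 108.5 CPM in the Ly6a-low sums. In inflamed batch 2 the pair was almost equal, and the naive values lay below all inflamed values. The log2 fold change was 1.23 ± 0.51 (SE, edgeR unadjusted p = 0.0531). Every inflamed high cell had a Ly6d read (26 of 26 in batch 2, exact Clopper-Pearson 95% interval 86.8 to 100%, and 25 of 25 in batch 3), against 24 of 26 and 24 of 25 inflamed low cells. Among naive cells 10 of 17 high and 8 of 17 low cells of batch 2 had one, and 12 of 19 in each class of batch 3. These intervals cover counting error only.

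Ly6c1 had 262, 481, 32.9 and 37.3 CPM in the Ly6a-high sums, against 220.5, 146.3, 0.123 and 1.58 CPM in the Ly6a-low sums. Its reads were far fewer in naive than in inflamed sums, and its values in the naive low sums were near 0. In inflamed batch 2, 19 high against 22 low cells of 26 had a Ly6c1 read. The counts were 24 against 18 of 25 in inflamed batch 3 and 5 against 2 of 17 in naive batch 2. In naive batch 3, 6 of 19 cells of each class had one. A single cell gave 54.5% and 50.3% of the Ly6c1 reads in the naive high sums of batches 2 and 3. The log2 fold change of Ly6c1 was 3.28 ± 1.49 (SE, edgeR unadjusted p = 0.0709), and the naive difference exceeded the inflamed one (interaction -5.07 ± 1.57 (SE, edgeR unadjusted p = 0.0253), adjusted p = 1). Since Ly6c1 shares 15.03% of the Ly6a read windows, and the sources used here do not say how reads that fit several places were handled, the part of Ly6a reads in the Ly6c1 difference was not tested. Ly6e, a broadly expressed relative, had 2206, 2291, 1788 and 1740.5 CPM in the Ly6a-high sums, against 2339, 1675, 1324 and 1347 CPM in the Ly6a-low sums. It was read at like levels in all sums, higher in the high sum of 3 of 4 groups, with a log2 fold change of 0.29 ± 0.18 (SE, edgeR unadjusted p = 0.151). Lypd3, a surface protein of keratinocytes, had 66.7, 21.6, 7.99 and 62.8 CPM in the Ly6a-high sums, against 9.06, 2.31, 3.82 and 0 CPM in the Ly6a-low sums. A single cell gave 99.7% of its reads in the naive batch 3 high sum, where the low sum had 0 reads.

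**Figure D4:**
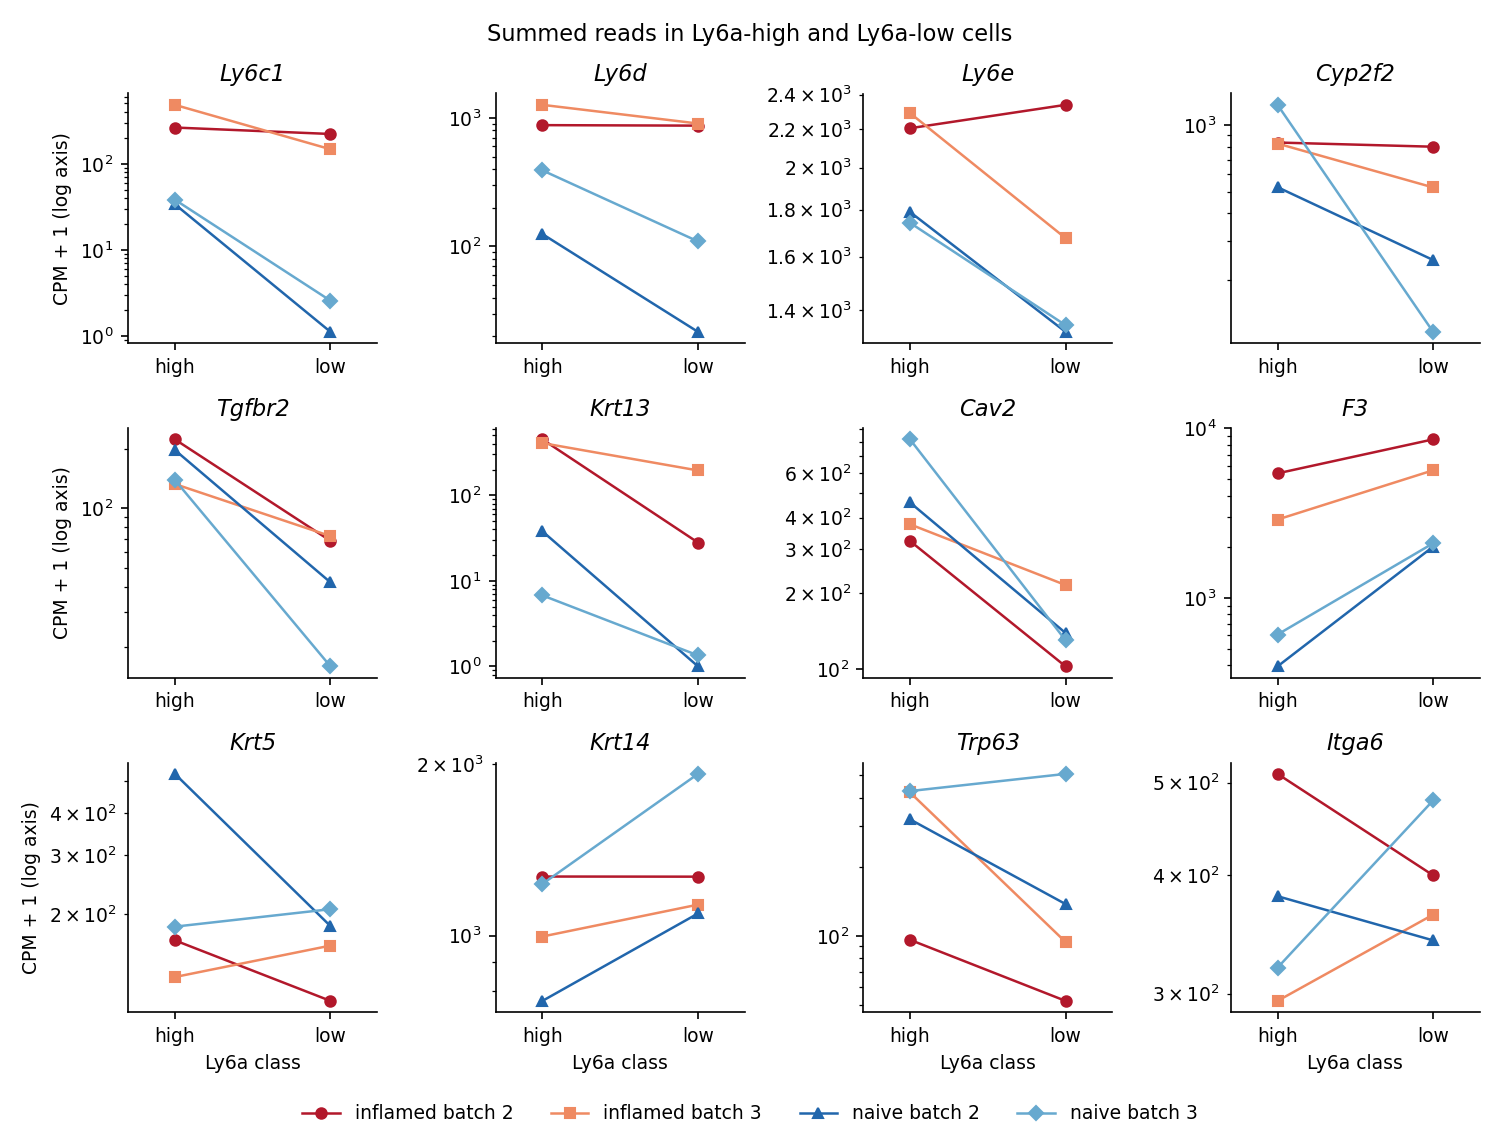
CPM plus 1 of 12 genes (log axes with different ranges) in the Ly6a-high sum and the Ly6a-low sum of each group, with lines joining the 2 sums of a group. Each point is 1 sum of 17 to 26 cells, without replicates within a group. Lines for Ly6c1, Ly6d, Cyp2f2, Tgfbr2, Krt13 and Cav2 end lower at the low class in all 4 groups and those for F3 end higher, while Krt5, Trp63 and Itga6 have both directions.

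Whether the classes differed in basal and luminal identity was read from 18 basal and 14 luminal genes that could be tested. None was called and none had the same direction in all 4 groups. The median log2 fold change was -0.22 for the basal and -0.34 for the luminal genes. Both signs turned on other scales, to 0.45 and 0.12 in mean log2(CPM + 1), and to 0.14 and 0.05 with cells ranked within bins of detected genes. Itga6, the gene of the sort marker CD49f, had 509.7, 294, 379 and 319 CPM in the Ly6a-high sums, against 399, 362, 340.3 and 478 CPM in the Ly6a-low sums. High values exceeded low ones in both batch 2 groups and were under them in both batch 3 groups, and the log2 fold change was -0.09 ± 0.30 (SE, edgeR unadjusted p = 0.761). Krt14, a basal keratin, had 1269, 995, 767 and 1231 CPM in the Ly6a-high sums, against 1268, 1132, 1092 and 1921 CPM in the Ly6a-low sums. It was high in all sums, and its log2 fold change of -0.33 ± 0.20 (SE, edgeR unadjusted p = 0.153) had a 95% interval from -0.84 to 0.17. Krt5, the other classical basal keratin, had 165.6, 128.3, 525 and 182.1 CPM in the Ly6a-high sums, against 108.7, 159.6, 182.8 and 206 CPM in the Ly6a-low sums. Only the naive batch 2 high sum stood out, and the log2 fold change was 0.40 ± 0.46 (SE, edgeR unadjusted p = 0.412). Krt5 was detected in 80.8 to 100% of the cells of each class and group.

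Trp63, the transcription factor p63 of basal cells, had 95.2, 420.1, 321 and 426 CPM in the Ly6a-high sums, against 51.2, 93.1, 136.7 and 506 CPM in the Ly6a-low sums. It was higher in the high sum of 3 of 4 groups, with a log2 fold change of 1.02 ± 0.48 (SE, edgeR unadjusted p = 0.0805). In inflamed batch 2, Trp63 was detected in 22 of 26 high cells (84.6%, exact Clopper-Pearson 95% interval 65.1 to 95.6%), against 11 of 26 low cells (42.3%, 23.4 to 63.1%). After thinning to 500000 counts per cell, with 25 shallower cells left out, the shares there were 72% in high and 35.3% in low cells. In naive batch 3 the order was the other way, with 15 of 19 high against 18 of 19 low cells. The luminal keratin Krt8 had 108.7, 121.5, 56.4 and 140.2 CPM in the Ly6a-high sums, against 189.3, 140.7, 159.7 and 104.7 CPM in the Ly6a-low sums. Its partner Krt18 had 863, 717, 339 and 1364 CPM in the Ly6a-high sums, against 901, 1269, 875 and 1280.1 CPM in the Ly6a-low sums. Both luminal keratins were read in all sums, with log2 fold changes of -0.52 for Krt8 and -0.54 for Krt18 and mixed directions.

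Genes of the proximal ducts, where Sca-1 cells are known to be frequent in mice, included 12 that could be tested. Of these, 4 were higher in the high sum of all 4 groups (33.3%, against 7.02% of all genes tested) and 0 lower, with a median log2 fold change of 0.83 (0.94 with cells ranked within bins of detected genes) and medians of -0.03, 0.32, 0.61 and 2.95 in the 4 groups. None was called. Ly6d is 1 of these genes. Cyp2f2, a cytochrome P450, had 835, 826, 524 and 1237 CPM in the Ly6a-high sums, against 799, 523, 245 and 115.2 CPM in the Ly6a-low sums. Nearly equal in inflamed batch 2, the sums of Cyp2f2 were farthest apart in naive batch 3, and the log2 fold change was 1.24 ± 0.60 (SE, edgeR unadjusted p = 0.0842). Aqp3, a water and glycerol channel, had 21.3, 59.04, 3.43 and 0.438 CPM in the Ly6a-high sums, against 0.764, 1.91, 0.431 and 0.413 CPM in the Ly6a-low sums. Its difference lay mainly in the inflamed groups, with few reads in naive cells, and the log2 fold change was 3.39 ± 1.55 (SE, edgeR unadjusted p = 0.0729). In naive batch 2, 1 of 17 cells of each class had an Aqp3 read. The naive batch 3 sums were almost equal, though Aqp3 counts among the 4 genes higher in all 4 groups. Krt4 had a log2 fold change of 0.17 ± 1.09 (SE, edgeR unadjusted p = 0.88). Among 16 stem and progenitor genes 1 was higher in all 4 groups (6.25%, against 7.02% of all genes tested) and the median was 0.24. Cd44, a hyaluronan receptor used as such a marker, had a log2 fold change of 0.09 ± 0.41 (SE, edgeR unadjusted p = 0.827).

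Squamous and wound keratinocyte genes gave 13 tested members, of which 3 were higher in all 4 groups (23.1%, against 7.02% of all genes tested). In all 4 groups 0 were lower, 0 were called, and the median was 0.70, or 0.37 with cells ranked within bins of detected genes. The medians in the 4 groups were 1.75, 0.22, 0 and 0. Krt13 (chr11:100117327-100121566), a keratin of stratified epithelia, had 449, 406, 36.9 and 5.75 CPM in the Ly6a-high sums, against 27.02, 194, 0 and 0.344 CPM in the Ly6a-low sums. Inflamed values of Krt13 exceeded naive values in both classes, and its log2 fold change was 4.22 ± 1.59 (SE, edgeR unadjusted p = 0.039). It was detected in 18 of 26 high against 9 of 26 low cells of inflamed batch 2, in 20 of 25 against 15 of 25 of inflamed batch 3, in 4 of 17 against 0 of 17 of naive batch 2 and in 5 of 19 against 3 of 19 of naive batch 3. A single cell gave 58.7% of the Krt13 reads in the inflamed batch 2 high sum. Krt6a, a keratin of wounded skin, had 285, 75.8, 0.154 and 0.313 CPM in the Ly6a-high sums, against 16.4, 22.2, 0 and 0.275 CPM in the Ly6a-low sums. Its difference was one of inflamed cells, since the naive sums held almost no Krt6a reads, though Krt6a counts among the 3 genes higher in all 4 groups. Sprr1a, a precursor of the cornified envelope, had 2017, 942, 224 and 118.5 CPM in the Ly6a-high sums, against 1489, 2674, 745 and 573 CPM in the Ly6a-low sums. It ran the other way in 3 of 4 groups, with a log2 fold change of -1.30 ± 0.48 (SE, edgeR unadjusted p = 0.0369).

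Interferon-inducible genes were of interest because Ly6a is one itself. Of 30 type I interferon response genes 14 were tested, 1 was higher in all 4 groups (7.14%, against 7.02% of all genes tested), 0 were lower, and 0 were called. Their median log2 fold change was 1.19, with medians of 1.03, 0.71, 1.16 and 1.42 in the 4 groups, against 0.01, 0.02, 0.04 and 0 over all genes tested. When cells were ranked by Ly6a within bins of detected genes, the median over all groups was 1.00, against -0.01 over all genes tested. Ifit2, an RNA-binding antiviral protein, was the 1 gene higher in all 4 groups, with 7.61, 62.9, 95.4 and 129.6 CPM in the Ly6a-high sums, against 0.218, 9.95, 0.185 and 64.1 CPM in the Ly6a-low sums. Its reads came largely from single cells, which gave 98.6% in the inflamed batch 2 high sum and 95.5% in the naive batch 2 high sum, and the log2 fold change was 4.06 ± 1.70 (SE, edgeR unadjusted p = 0.0551).

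Of 16 tested interferon gamma response genes 1, Irgm1, was higher in all 4 groups (6.25%, against 7.02% of all genes tested) and 0 were called. Their median was 0.88, or 0.54 with cells ranked within bins of detected genes, with group medians of 0.56, 0.98, 0 and 0.21. The summed CPM of the list was lower in the high sum of inflamed batch 2 (1490 against 1684) and naive batch 3 (2041 against 4086). It was higher in the high sum of inflamed batch 3 (9576 against 4900) and naive batch 2 (2706 against 1521). Irgm1, an immunity-related GTPase, had 242, 946, 4.77 and 8.25 CPM in the Ly6a-high sums, against 162.4, 264, 0 and 0.344 CPM in the Ly6a-low sums. Inflamed and naive levels were far apart, the naive low sums held few or no Irgm1 reads, and the log2 fold change was 3.10 ± 1.27 (SE, edgeR unadjusted p = 0.0512). It was 0.26 with cells ranked within bins of detected genes. The naive high sums drew their Irgm1 reads from 2 cells of batch 2, of which 1 gave 88.2%, and from 1 cell of batch 3, where 3 low cells had a read. Iigp1, of the same GTPase family, had 86.4, 927, 0 and 0.750 CPM in the Ly6a-high sums, against 6.60, 108.6, 0 and 0.894 CPM in the Ly6a-low sums. Gbp2, a guanylate-binding protein, had 125.8, 744, 0 and 98.99 CPM in the Ly6a-high sums, against 24.4, 145.5, 0.0616 and 0.275 CPM in the Ly6a-low sums. Both were higher in the high sums of the inflamed groups, with log2 fold changes over all groups of 2.32 ± 1.04 (SE, edgeR unadjusted p = 0.078) for Iigp1 and 3.02 ± 1.61 (SE, edgeR unadjusted p = 0.11) for Gbp2. A single cell gave 87.8% of the Iigp1 reads in the inflamed batch 2 high sum and 89.3% in the low sum. There 10 of 26 cells of each class had an Iigp1 read. For Gbp2, 1 cell gave 99.8% of the reads in the naive batch 3 high sum, and 3 of 19 cells of each class had a read there.

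Antigen presentation genes gave no shared direction. Of 21 tested class I genes 1 was higher in all 4 groups (4.76%, against 7.02% of all genes tested) and 0 were lower, with a median of 0.47. B2m, the invariant class I chain, had 4117, 5823, 468 and 1517 CPM in the Ly6a-high sums, against 5402, 4507, 899.7 and 586 CPM in the Ly6a-low sums. H2-K1 and H2-D1, the classical class I heavy chains, had log2 fold changes of 0.17 ± 0.25 (SE, edgeR unadjusted p = 0.533) for H2-K1 and 0.37 ± 0.23 (SE, edgeR unadjusted p = 0.161) for H2-D1. All 3 were far higher in inflamed than in naive sums of either class, and the classes had both directions for B2m and H2-K1. Cd74, the class II invariant chain, had 311, 4316, 14.9 and 20.4 CPM in the Ly6a-high sums, against 661, 2392, 0 and 0.138 CPM in the Ly6a-low sums. Its inflamed values all exceeded its naive ones, and the log2 fold change was 3.18 ± 2.20 (SE, edgeR unadjusted p = 0.199). In the naive high sums 1 cell gave all Cd74 reads of batch 2 and 1 cell 98.5% of those of batch 3.

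Inflammatory genes included chemokines with opposite directions. Among 23 tested NF-kB genes 0 were higher and 2 lower in all 4 groups (8.70%, against 5.93% of all genes tested), with a median of -0.40 (0.03 in mean log2(CPM + 1)) and 0 called. Ccl20, a chemokine for lymphocytes and dendritic cells, had 662, 3419, 0 and 0.250 CPM in the Ly6a-high sums, against 170.4, 334, 0 and 0.275 CPM in the Ly6a-low sums. It was read only in the inflamed groups beyond a few reads, was higher in the high sum of both, and had a log2 fold change of 1.99 ± 0.72 (SE, edgeR unadjusted p = 0.0405). A single cell gave 74.3% and 70.9% of the Ccl20 reads in the inflamed high sums of batches 2 and 3. Cells with a read numbered 16 of 26 high against 11 of 26 low in inflamed batch 2, and 14 of 25 high against 18 of 25 low in inflamed batch 3. Ccl2, a chemokine for monocytes, had 2.76, 27.2, 0.0512 and 0.1251 CPM in the Ly6a-high sums, against 54.03, 25.1, 4.74 and 22.5 CPM in the Ly6a-low sums. Ccl2 was lower in the high sum of 3 groups, with a log2 fold change of -4.78 ± 2.04 (SE, edgeR unadjusted p = 0.0581), which was -0.08 with cells ranked within bins of detected genes. In all, 2 to 5 cells of a class had a Ccl2 read outside naive batch 2, where 1 cell of each class had one, and a single cell gave 99.7% of the reads in the naive batch 3 low sum. Cxcl2, a chemokine for neutrophils, had 57.5, 70.3, 0.512 and 0.375 CPM in the Ly6a-high sums, against 218, 107.8, 27.05 and 1.24 CPM in the Ly6a-low sums. It was lower in the high sum of all 4 groups, and the log2 fold change was -2.28 ± 1.09 (SE, edgeR unadjusted p = 0.0833), or -0.56 with cells ranked within bins of detected genes. Il1rn, the interleukin 1 receptor antagonist, had 38.7, 135.7, 0 and 0 CPM in the Ly6a-high sums, against 114.9, 419, 0 and 0.0688 CPM in the Ly6a-low sums. In naive cells it had reads in 1 of 4 sums, and it was lower in both inflamed high sums. Its log2 fold change was -1.71 ± 0.78 (SE, edgeR unadjusted p = 0.0811). More high than low cells had an Il1rn read, 13 against 8 of 26 in inflamed batch 2 and 11 against 6 of 25 in inflamed batch 3, and the difference in mean log2(CPM + 1) was -0.02. The secreted protease inhibitor Slpi and the iron-carrier protein gene Lcn2 had log2 fold changes of 3.15 ± 1.39 (SE, edgeR unadjusted p = 0.0646) for Slpi and 0.81 ± 0.37 (SE, edgeR unadjusted p = 0.0751) for Lcn2, with Slpi higher in all 4 groups and Lcn2 in 3. Slpi had 0.1251 CPM in the high against 0.0688 CPM in the low sum of naive batch 3, 1 cell gave all Slpi reads in the naive batch 2 high sum, and the log2 fold change was 0.40 with cells ranked within bins of detected genes.

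TGF-beta signalling, which restrains growth of prostate epithelium, had 19 tested genes. Of these, 2 were higher in all 4 groups (10.5%, against 7.02% of all genes tested) and 5 lower (26.3%, against 5.93%). The median was -0.16 and 0 were called, and the median turned to 0.20 in mean log2(CPM + 1) and to 0.13 with cells ranked within bins of detected genes. Tgfbr2 (chr9:116084293-116175360), the type II receptor that binds the ligand, had 222, 131.6, 196 and 137.9 CPM in the Ly6a-high sums, against 67.5, 71.4, 41.3 and 14.9 CPM in the Ly6a-low sums. High and low values of Tgfbr2 did not overlap, and the log2 fold change was 2.01 ± 0.59 (SE, edgeR unadjusted p = 0.0152), or 0.89 with cells ranked within bins of detected genes, while 98.1% of its reads in the naive batch 2 high sum and 91.6% in the low sum came from 1 cell each. Shares of cells with a Tgfbr2 read differed less, with 21 of 26 high against 18 of 26 low cells in inflamed batch 2 and 18 of 25 against 20 of 25 in inflamed batch 3. In naive cells they were 10 of 17 high against 8 of 17 low in batch 2, and 11 of 19 against 9 of 19 in batch 3. Smad2, which carries the signal to the nucleus, had 90.8, 72.9, 4.36 and 74.9 CPM in the Ly6a-high sums, against 222, 149.4, 69.1 and 128.9 CPM in the Ly6a-low sums. It was lower in every high sum and farthest apart in naive batch 2, with a log2 fold change of -1.69 ± 0.74 (SE, edgeR unadjusted p = 0.0654), or 0.13 with cells ranked within bins of detected genes. Single cells gave 95.2% and 95.8% of the Smad2 reads in the naive low sums of batches 2 and 3. In the naive batch 2 high sum 1 cell gave 88.2%. In inflamed cells 19 high against 20 low of batch 2 and 10 against 9 of batch 3 had a Smad2 read. In naive cells 6 against 9 of batch 2 and 9 against 4 of batch 3 had one. Skil, a nuclear inhibitor of that signal, had 1185, 1367, 1140.1 and 865 CPM in the Ly6a-high sums, against 999, 3079, 1894 and 2342 CPM in the Ly6a-low sums. Lower in 3 of 4 groups, Skil had a log2 fold change of -0.78 ± 0.32 (SE, edgeR unadjusted p = 0.0495).

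Heat shock and immediate early genes followed. Of 13 tested heat shock genes 0 were higher and 3 lower in all 4 groups (23.1%, against 5.93% of all genes tested). Their median was -0.28, also with cells ranked within bins of detected genes, and 0 were called. The group medians were -1.53, -0.17, -0.01 and 0.09, so that a clearly lower median was seen in inflamed batch 2, and the summed CPM of the list was higher in the high sum of the other 3 groups. Bag3, a co-chaperone, had 65.1, 74.5, 144.1 and 406 CPM in the Ly6a-high sums, against 212, 110.5, 271 and 778 CPM in the Ly6a-low sums. Its log2 fold change was -1.03 ± 0.34 (SE, edgeR unadjusted p = 0.025), and Dnaja1, a partner of Hsp70, had -0.51 ± 0.22 (SE, edgeR unadjusted p = 0.06). Of 26 tested AP-1 and immediate early genes 0 were higher and 3 lower in all 4 groups (11.5%, against 5.93% of all genes tested). Their median was -0.32 (0.01 with cells ranked within bins of detected genes), and 0 were called. Nr4a3, an orphan nuclear receptor, had 86.6, 55.03, 266 and 355 CPM in the Ly6a-high sums, against 118.7, 80.04, 422 and 1125 CPM in the Ly6a-low sums. Naive levels of Nr4a3 exceeded inflamed ones in both classes, and the log2 fold change was -0.83 ± 0.34 (SE, edgeR unadjusted p = 0.0531). In mean log2(CPM + 1) the medians of the 2 lists had the other sign, 0.48 for heat shock and 0.24 for AP-1 and immediate early genes, beside a median of 0.20 over all genes tested.

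Androgen response genes, glycolysis, sterol synthesis, unfolded protein and p53 genes had medians from -0.48 to 0.10, with 0 called, and from 0.00859 to 0.33 in mean log2(CPM + 1). With cells ranked within bins of detected genes the medians were 1.09 for androgen response and -0.91 for p53 genes. On that scale they were -0.35 for glycolysis, -0.13 for sterol synthesis and 0.05 for unfolded protein genes, against -0.01 over all genes tested. Of the androgen response genes, Hpgd, which inactivates prostaglandins, had 21.5, 92.8, 276 and 180.8 CPM in the Ly6a-high sums, against 30.1, 0.755, 41.3 and 20.01 CPM in the Ly6a-low sums. Hpgd was lower in the high sum of inflamed batch 2 only, and the log2 fold change was 3.01 ± 1.41 (SE, edgeR unadjusted p = 0.0787). Fkbp5, a co-chaperone of steroid receptors, had a log2 fold change of 1.49 ± 0.84 (SE, edgeR unadjusted p = 0.126), higher in all 4 groups. It was the 1 gene of 15 tested androgen response genes to be so (6.67%, against 7.02% of all genes tested). The median of that list was -0.08. Among 23 tested cell cycle genes the median was 1.31, but it was -0.89 with cells ranked within bins of detected genes, and the group medians were -3.53, 0.78, 2.88 and 0. Cells with a read of at least 10 of 32 cell cycle genes numbered 1 of 26 high against 5 of 26 low in inflamed batch 2, 5 of 25 against 3 of 25 in inflamed batch 3, 6 of 17 against 4 of 17 in naive batch 2 and 0 of 19 in each class of naive batch 3.

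**Figure D5:**
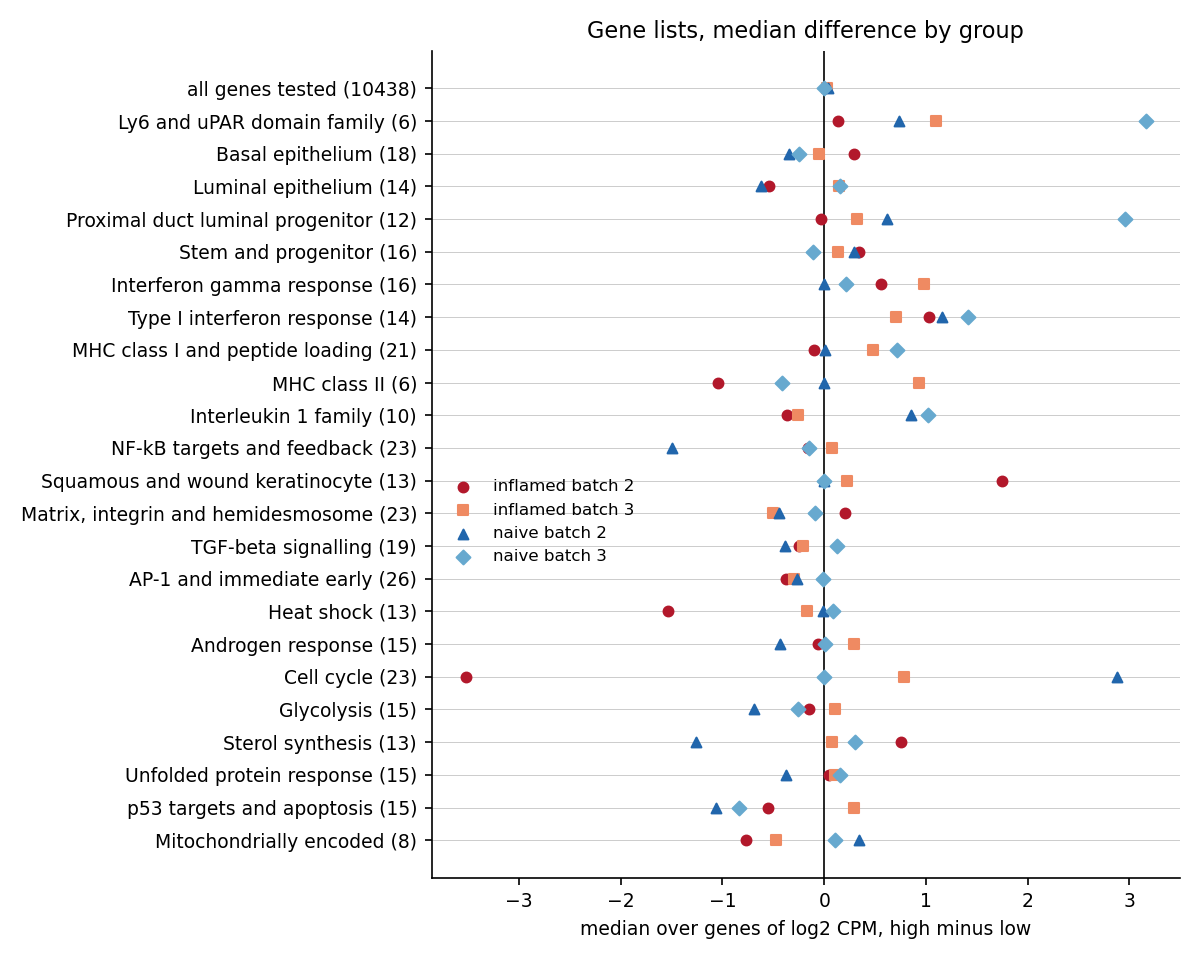
Median over the tested genes of each list of the log2 CPM of the Ly6a-high sum minus that of the Ly6a-low sum, in each group, with the number of tested genes in brackets. Symbols are groups. Medians of all genes tested lie between 0 and 0.04, those of the type I interferon list are above 0 in all 4 groups, and cell cycle genes range from -3.53 to 2.88.

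Whether the difference between the classes itself differed between inflamed and naive cells was tested as an interaction. No gene was called of 10438 (lowest adjusted p = 1), and 479 (4.59%) had an unadjusted edgeR p under 0.05. The 3 with the smallest p and a positive interaction, which means a more positive high minus low difference in inflamed cells, were Prr9, Cyp39a1 and Paxip1. All 3 were higher in both inflamed high sums and lower, by more log2 units, in both naive high sums. Prr9, a proline-rich epidermal gene, had 925, 101.2, 2.61 and 0.563 CPM in the Ly6a-high sums, against 706, 85.01, 446 and 403 CPM in the Ly6a-low sums. Its naive high sums were near 0, and the within-group differences were 0.39, 0.25, -7.36 and -9.25 log2 units. A single cell gave 89.1% of the Prr9 reads in the naive batch 2 low sum and 84.7% in that of batch 3, and cells with a read numbered 14 of 17 high against 12 of 17 low in naive batch 2 and 7 of 19 high against 11 of 19 low in naive batch 3. The interaction was 8.71 ± 0.99 (SE, edgeR unadjusted p = 0.000444). Cyp39a1, an oxysterol hydroxylase, and Paxip1, a DNA damage adaptor, had interactions of 10.73 ± 1.66 (SE, edgeR unadjusted p = 0.00169) for Cyp39a1 and 7.56 ± 1.17 (SE, edgeR unadjusted p = 0.00169) for Paxip1. The 3 with the smallest p and a negative interaction were Cd74, Pigm and Mrtfb. For Cd74 the interaction was -8.18 ± 1.301 (SE, edgeR unadjusted p = 0.00188), while it was 0.47 in mean log2(CPM + 1). A single cell gave all Cd74 reads in the naive batch 2 high sum and 98.5% in that of batch 3. Mrtfb, a coactivator of serum response factor, had 183.1, 292, 165.98 and 246 CPM in the Ly6a-high sums, against 255, 246, 3.76 and 6.33 CPM in the Ly6a-low sums. It was read evenly in the inflamed sums and was near 0 in the naive low sums, with an interaction of -5.49 ± 0.84 (SE, edgeR unadjusted p = 0.0016). Pigm, an enzyme that builds the glycolipid anchor of proteins such as Sca-1, had 1.24, 3.84, 204 and 121.7 CPM in the Ly6a-high sums, against 21.1, 153.1, 0.431 and 0.413 CPM in the Ly6a-low sums. Its classes had opposite order in the conditions, and the interaction was -13.23 ± 1.71 (SE, edgeR unadjusted p = 0.000776), while a single cell gave 99.97% of the reads in the naive batch 2 high sum and 96.7% in that of batch 3.

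Markers of other cell types were set beside these results. Of 21 leukocyte markers 14 had 0 reads in all high and low sums, among them Ptprc, the gene of CD45, Cd3e, Lyz2, Tyrobp and Laptm5, and only Cd68 was tested. As CPM of total counts, the leukocyte markers summed to 0.058 to 60.7 in the high sums and 0.24 to 15.5 in the low sums. Of 12 endothelial markers, Tie1, Emcn and Cldn5 had 0 reads, and the sums were 0.07 to 47.2 in high and 0.042 to 19.9 in low sums. Stromal and smooth muscle markers summed to 3113 to 5914 in high and 3743 to 5695 in low sums, nearly all of them reads of Dcn, while Lum, Pdgfrb, Myh11 and Des had 0 reads. Seminal vesicle and secretory markers summed to 0 to 449 in high and 6.65 to 135.9 in low sums, and neuroendocrine markers to 25.4 to 276 in high and 42.9 to 248 in low sums. What part any of these markers had in a gene difference was not tested.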

How the data were processed

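The authors deposited 1 table of unnormalized read counts for each batch, with 1 column per cell and 48440 rows, of which 48058 had a symbol in the GENCODE M21 annotation of GRCm38. TopHat2, HTSeq, R 3.4.1, Seurat 1.4 and GRCm38.p6 are named without roles, per the submitters' processing notes. How multi-mapped reads and strand were handled is not stated there, so near-identical genes, such as those of the Ly6, Krt6, class I, Gbp and Irg families, and overlapping genes are uncertain in part. No reads carried molecular identifiers, and intervals of shares of cells cover counting error only. The interval of the Krt14 log2 fold change was built from the edgeR SE, which reflects the spread between groups.

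Cells with at least 1000 detected genes and 50000 counts were kept (268 of 282, with 52475 to 2219764 counts each). No cell's counts equalled another's, and no doublet caller was run. Ly6a was left out of sums, library sizes and tests. Raw counts were summed per class and group and tested with edgeR 4.0.16 (R 4.3.3, TMM factors, filterByExpr, quasi-likelihood F test, Benjamini-Hochberg adjusted p under 0.05) with the group as a block (3 residual and a median of 2.85 prior degrees of freedom). The 2 sums of a group come from the same sorted and captured cells, which is what pairs them. No label names an animal, so p-values measure only the spread between 4 groups, which may be technical. CPM of summed genes use TMM-scaled library sizes without Ly6a, within-group differences use log2 CPM with a prior count of 2, and fold changes of genes with few reads depend on that kind of offset. DESeq2 1.42.0, limma 3.58.1 on mean log2(CPM + 1), other filters, factors and classes, thinned cells and classes matched on detected genes were alternatives. Scripts were tested on simulated data.

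Genes named are the 12 higher and 12 lower with the smallest p among genes with a read in 20% of cells and the same direction in all 4 groups, a fixed set of 18 genes, up to 3 tested genes with the smallest p per list, and 3 genes per direction for the interaction, from which the text takes examples. Results for 3 genes of the fixed set are not reported here. The classes, gene lists and genes were chosen with earlier results of these data known.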

Additional observations from a re-analysis of the deposited data

Results flagged for a closer look

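In 72 sets of 4 within-group differences, each of them the Ly6a-high minus the Ly6a-low value in a group, the group at 1 end was compared with its nearest neighbour. In 5 sets the share of the whole range that its gap took up was above the 95% critical value of Dixon's test for 4 values. Chance flags about 1 set in 20, here 3.6 of 72. Ly6e stood apart in inflamed batch 2, where the log2 difference was -0.0845 against 0.45, 0.43 and 0.37 in the other groups. Krt4 stood apart in naive batch 3 with 2.87 log2 units, and the other groups had -0.74, -0.23 and -0.57. Smad2 stood apart in naive batch 2 with -3.96 log2 units, and the other groups had -1.29, -1.04 and -0.78. Dnaja1 stood apart in the same group with -1.01 log2 units, and the other groups had -0.36, -0.35 and -0.33. The share of reads from ribosomal protein genes was 0.425 percentage points higher in the high class of naive batch 2 and lower in the high class of the other groups. What sets these groups apart was not tested.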

How the results depend on the processing

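DESeq2 called 2.96% of genes higher and 1.64% lower, against 0 and 0 with edgeR, and it was the one setting with calls. The other settings, including no replicate block (0 higher and 0 lower), called 0 in either direction. The interaction called 0 genes under every setting run. For the 69 single-gene results, 1142 alternative values gave 1087 with direction and side of the threshold kept, 23 that only DESeq2 called and 32 with the other direction, all of them uncalled. Upper-quartile factors, other filters, no replicate block and outer classes of 4 equal parts gave 0 of these 32. Those with the other direction were, as log2 differences, as follows. Batch 2 alone gave 0.27 for Itga6, -0.92 for Krt4, -0.66 for B2m and -0.0943 for H2-K1. Batch 3 alone gave -0.29 for Krt5, 0.0635 for Krt8 and -0.55 for Cd44. Inflamed cells alone gave 0.0318 for Itga6, -0.48 for Krt4, -0.0058 for B2m and -0.11 for Cd74. Naive cells alone gave -0.24 for Iigp1. Classes of 2 equal parts gave 0.0893 for Itga6 and -0.32 for Ifit2. Ranking cells within bins of detected genes gave 0.12 for Itga6, -0.21 for Cd44 and 0.13 for Smad2. Thinned cells gave 0.077 for Itga6, -0.53 for Krt4 and -0.0083 for Cd44. Mean log2(CPM + 1) with limma gave 0.46 for Itga6, 0.12 for Krt14, 0.26 for Krt8, -0.16 for Cd44, 0.47 for Cd74 (interaction) and 0.33 for Dnaja1. Leaving out 1 group at a time gave a range of -0.25 to 0.064 for Itga6, with the other sign without naive batch 3. The range was -0.65 to 0.60 for Krt4, with the other sign without naive batch 3. The range was -0.32 to 0.47 for Cd44, with the other sign without naive batch 2. The range was -0.33 to 0.43 for B2m, with the other sign without inflamed batch 3 and without naive batch 3. The range was -0.0505 to 0.37 for H2-K1, with the other sign without naive batch 3. The cause of each reversal was not tested.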
